A study of Mus musculus with 18 samples.

Results

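The genes described here are 9 components of the macrophage machinery that senses microbial and danger signals in the cytosol and can end in pyroptosis, an inflammatory form of cell death: Nlrp3, Nlrc4, Aim2, Pycard, Casp1, Casp4, Gsdmd, Nod1 and Nod2. They were taken by gene symbol from the probe annotation, and all 9 were found among 22485 genes. They carry 20 of 44397 array features, 10 of them for Gsdmd, 2 each for Nlrp3 and Casp4 and 1 for each of the others. Each of 18 arrays with 2 dyes set a sample of cultured mouse macrophages against a reference of untreated macrophages, and values are log2 ratios to that reference, so that 0 is the level of the reference and 1 is a doubling. The cells were bone marrow derived macrophages (BMDM) from mice of 8 to 10 weeks, grown in M-CSF at 10 ng/ml for 7 days. They were Nrf2-/- (knockout, lacking the transcription factor NRF2, encoded by Nfe2l2, which switches on antioxidant genes) or Nrf2+/+ (wild type).

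There were 5 groups. Heme, which carries the iron of hemoglobin, was bound to albumin and used at 200 µM for 4 h, followed by 4 h of LPS, the endotoxin of Gram-negative bacteria, in 5 Nrf2-/- and 3 Nrf2+/+ samples. LPS alone was given for 4 h to 4 Nrf2-/- and 3 Nrf2+/+ samples, and albumin alone for 4 h to 3 Nrf2+/+ samples. LPS was used at 10 ng/ml. No Nrf2-/- group went without LPS, and the protocol speaks of albumin before LPS where the labels of the LPS samples name none. The sources used here do not give the genotype of the reference, the deletion behind the knockout or the tie of samples to single mice, beyond a statement that replicates were independent biological ones.

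Inflammasomes are assembled in the cytosol by a sensor, the adaptor ASC (Pycard) and caspase-1 (Casp1). NLRP3 responds to many forms of cell stress, NLRC4 to bacterial flagellin and secretion systems that NAIP proteins bind, and AIM2 to double-stranded DNA. Caspase-1 matures the cytokines IL-1β and IL-18 and cuts gasdermin D (Gsdmd), whose freed part forms pores in the plasma membrane. The mouse gene Casp4 encodes caspase-11, which binds LPS inside the cell and cuts gasdermin D without the assembly of sensor, ASC and caspase-1. NOD1 and NOD2 bind fragments of bacterial peptidoglycan and signal to NF-κB. In macrophages an LPS signal raises the transcripts of several of these genes before the machinery is triggered. The arrays measure RNA only, and in such cultures fewer cells with a transcript and less transcript per cell cannot be told apart.

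RefSeq promoter windows (build GRCm38.p6, 250 bases before to 50 after a transcription start) were at hand for 8 of the 9 genes, 11 windows in all. Both strands were searched for 4 motifs: the κB motif bound by NF-κB, the interferon-stimulated response element, the interferon-gamma-activated site TTCNNNGAA and the antioxidant response element TGACNNNGC, which NRF2 binds. Matches were found in 5 windows of 3 genes. The 3 windows below, 1 for each gene with a match, are shown because all 3 genes rose with LPS and Nod1 also fell with heme; capitals mark the matches.

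Casp4, chr9:5308599-5308898, plus strand: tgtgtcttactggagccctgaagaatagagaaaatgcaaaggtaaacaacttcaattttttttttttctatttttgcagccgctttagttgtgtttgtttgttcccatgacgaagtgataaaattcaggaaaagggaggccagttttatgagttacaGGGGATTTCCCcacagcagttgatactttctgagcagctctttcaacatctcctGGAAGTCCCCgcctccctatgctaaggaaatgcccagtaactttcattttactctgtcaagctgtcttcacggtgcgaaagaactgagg

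Nlrp3, chr11:59541319-59541618, plus strand: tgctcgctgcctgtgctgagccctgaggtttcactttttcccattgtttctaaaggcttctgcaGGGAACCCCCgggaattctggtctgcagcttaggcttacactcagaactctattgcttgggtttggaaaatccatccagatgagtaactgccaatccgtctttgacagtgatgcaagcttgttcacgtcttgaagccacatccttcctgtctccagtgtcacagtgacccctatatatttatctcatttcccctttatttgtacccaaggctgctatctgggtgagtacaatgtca

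Nod1, chr6:54971612-54971911, minus strand: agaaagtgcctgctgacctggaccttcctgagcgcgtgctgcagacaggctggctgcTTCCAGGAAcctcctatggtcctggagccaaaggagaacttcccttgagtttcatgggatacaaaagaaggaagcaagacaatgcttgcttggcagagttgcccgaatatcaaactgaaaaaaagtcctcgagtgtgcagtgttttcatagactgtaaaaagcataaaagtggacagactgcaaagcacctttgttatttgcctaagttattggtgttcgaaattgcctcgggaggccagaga

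In the Casp4 window 3 κB matches start at -93, -92 and -39 from the transcription start, the earlier 2 overlapping, and a further Casp4 window from a start close by holds the same 3. The Nlrp3 window holds a κB match starting at -186, and the window of the other Nlrp3 start holds an antioxidant response element match at 10 to 18. The Nod1 window holds an interferon-gamma-activated site starting at -193. Of all 32851 windows 8.46% held the κB motif, 8.3% the interferon-gamma-activated site, 12.4% the antioxidant response element and 3.44% the interferon-stimulated response element, and a match is given as a description of the letters only. No match was found in the other Nod1 window or in the windows of Nlrc4, Aim2, Pycard, Casp1 and Nod2. Among the genes without a match, Aim2, Casp1 and Nod2 also rose with LPS. Aim2 and Pycard also fell with heme before LPS in Nrf2+/+ cells. Casp1 and Casp4 lie next to each other, with 0 genes between them in RefSeq.

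The labels were checked on known genes before the results. Nfe2l2 was listed at exactly 0 on all 9 Nrf2-/- arrays, but also on 2 of 3 Nrf2+/+ arrays with albumin, so a 0 does not by itself mark the knockout; where its probe lies relative to the deletion is not known. Nqo1, an NRF2 target, was at 0.00, 1.15, 0.18, 0.71 and 0.27 in Nrf2-/- cells with heme and LPS, against 3.57, 2.98 and 2.98 in Nrf2+/+ cells with heme and LPS. Hmox1, which encodes the heme-degrading enzyme, was higher with heme and LPS than with LPS alone by 4.01 ± 0.28 in Nrf2-/- cells and by 4.91 ± 0.34 in Nrf2+/+ cells (difference ± SE, adjusted p = 3.4e-06 and 6.44e-07 in limma). Exact values of 0 made up 17.9% to 48.8% of an array, and 44.3% to 48.8% on the 4 LPS-treated arrays lettered a; no value of the 9 genes was 0. The macrophage markers Adgre1, Cd68, Csf1r, Itgam and Lyz2 were measured on every array, and a ratio to a macrophage reference gives no absolute level of any of them. The 2 Nlrp3 probes differed by up to 1.23 on an array (median 0.31), against at most 0.14 for Casp4 and 0.27 for Gsdmd.

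**Figure D1:**
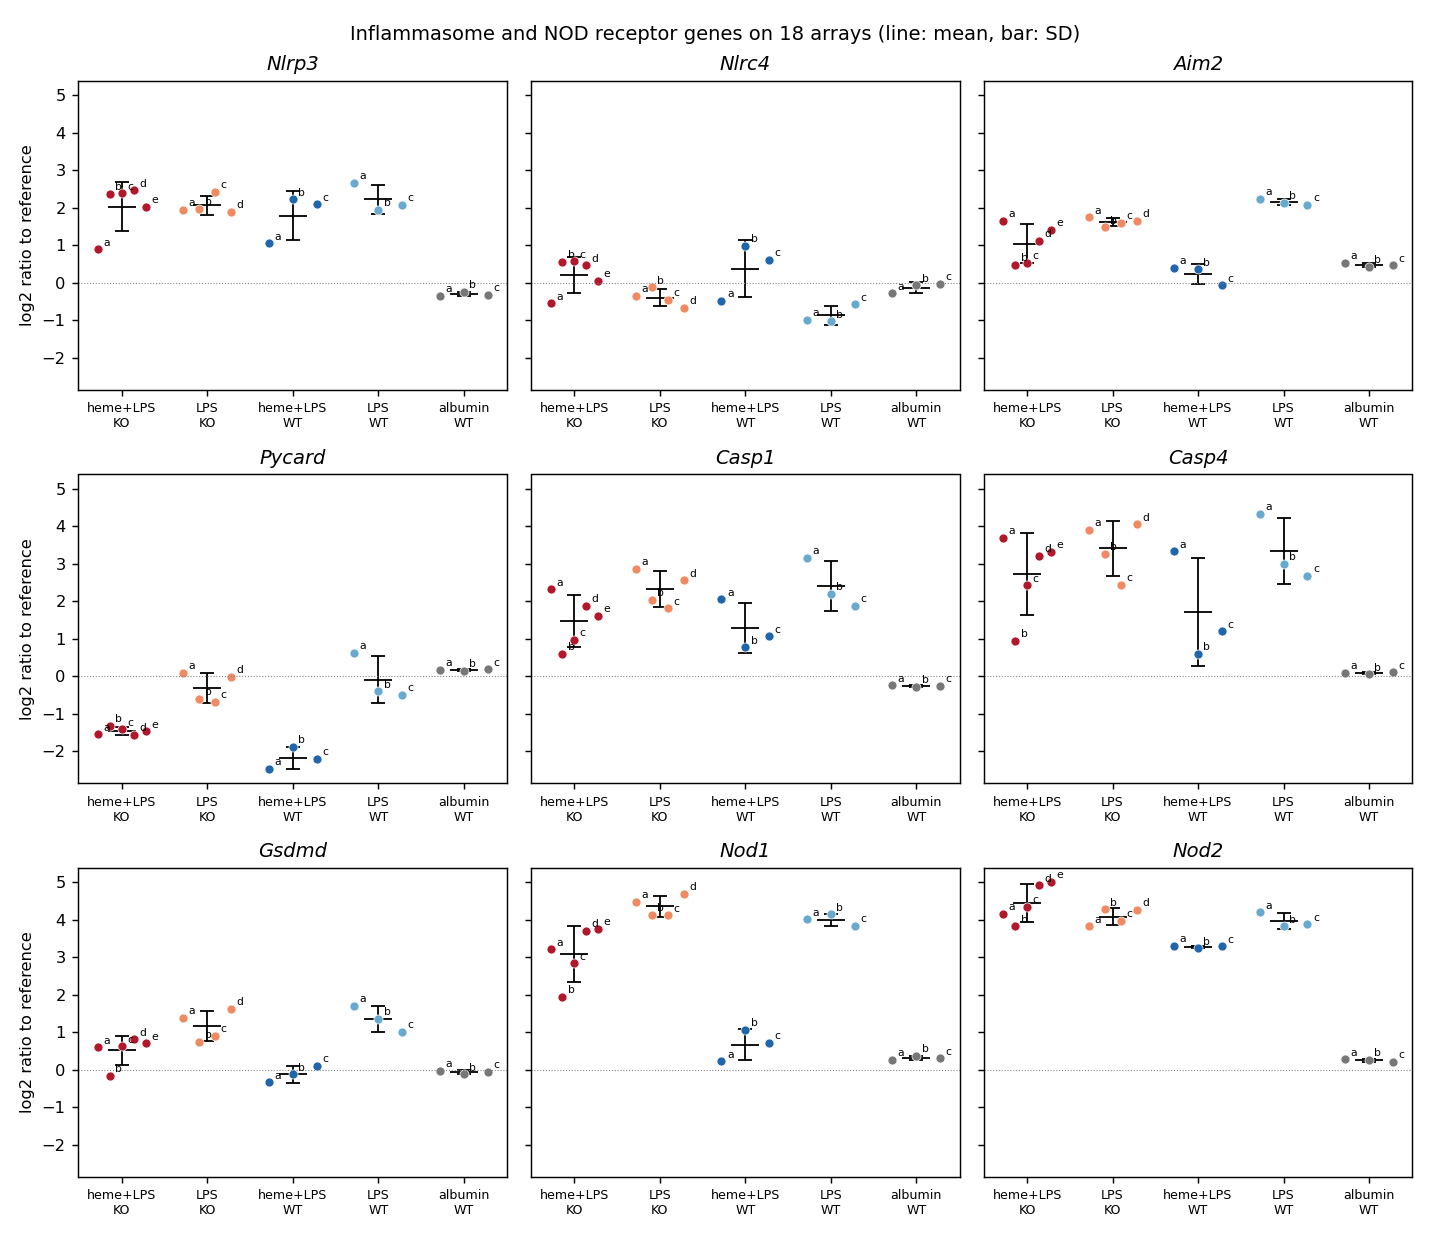
Log2 ratio to the untreated reference (y axis) of each of the 9 genes on each array, by group along the x axis; points are arrays with their replicate letter, lines are group means and bars SDs. Nod1 lies at 1.94 to 3.76 in knockout cells with heme and LPS, apart from 0.23 to 1.06 in wild-type cells with heme and LPS, and Pycard lies at -1.56 to -1.31 in knockout and at -2.47 to -1.88 in wild-type cells with heme and LPS.

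LPS raised 7 of the 9 genes in Nrf2+/+ macrophages, by 1.42 to 3.71 on the log2 scale, and 0 fell at an adjusted p under 0.05 in limma. At an unadjusted p under 0.05 there were 8, Nlrc4 being the 1 that was lower, and 8510 of all genes. The NOD receptors and Casp4 moved furthest, the adaptor gene Pycard did not move as a group, and Nlrc4 was lower without passing the test. Over all genes 28.6% were called in this comparison, 12.3% as higher. The groups did not overlap for 8 of the 9, against 47.2% of all genes, and the median of the 9 differences was 2.53, against a median of 0 over all genes.

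Among the sensors, Nlrp3 was at 2.67, 1.95 and 2.07 with LPS, against -0.35, -0.24 and -0.32 with albumin. All LPS arrays lay above all albumin arrays, a difference of 2.53 ± 0.38 (SE; adjusted p = 0.000166 in limma), which is 5.8-fold. Aim2 was at 2.24, 2.14 and 2.07 with LPS, against 0.54, 0.43 and 0.46 with albumin. This gave 1.67 ± 0.25 (adjusted p = 0.000154), with the 3 LPS arrays close together. Nlrc4 went the other way, at -0.99, -1.03 and -0.57 with LPS against -0.28, -0.069 and -0.025 with albumin. The groups did not overlap, but the difference of -0.74 ± 0.34 missed the threshold (adjusted p = 0.127 in limma, and 0.0228 to 0.272 over 14 alternatives). Without the LPS-treated arrays lettered a it was -0.67 (adjusted p = 0.0419), with albumin array a kept.

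Pycard, the adaptor, was at 0.62, -0.40 and -0.49 with LPS, against 0.17, 0.14 and 0.18 with albumin. The LPS arrays lay on both sides of the albumin arrays, with array a alone above them (difference -0.25 ± 0.26, adjusted p = 0.55 in limma). Without the arrays lettered a the difference was -0.61, with an adjusted p of 0.0263 (0.0263 to 0.99 over 14 alternatives).

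The effector genes rose. Casp1 was at 3.16, 2.20 and 1.87 with LPS, against -0.24, -0.29 and -0.26 with albumin, a difference of 2.67 ± 0.46 (adjusted p = 0.000474 in limma). Casp4 was at 4.33, 3.00 and 2.69 with LPS, against 0.091, 0.053 and 0.11 with albumin. That is 3.25 ± 0.75 or 9.52-fold (adjusted p = 0.0045), with the widest spread of the 9 genes. Gsdmd was at 1.70, 1.35 and 1.01 with LPS, against -0.025, -0.12 and -0.047 with albumin, a difference of 1.42 ± 0.26 (adjusted p = 0.000919). For each of the 3 genes array a was the highest of the LPS arrays; without the arrays lettered a the differences were 2.29, 2.76 and 1.24, all still called.

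The peptidoglycan receptors rose most. Nod1 was at 4.01, 4.14 and 3.84 with LPS, against 0.27, 0.38 and 0.30 with albumin. Nod2 was at 4.19, 3.82 and 3.88 with LPS, against 0.28, 0.26 and 0.21 with albumin. The differences, 3.68 ± 0.37 for Nod1 and 3.71 ± 0.25 for Nod2 (adjusted p = 5.11e-06 and 1.31e-07 in limma), are about 12.8-fold and 13.1-fold, with the LPS arrays far above the albumin arrays.

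**Figure D2:**
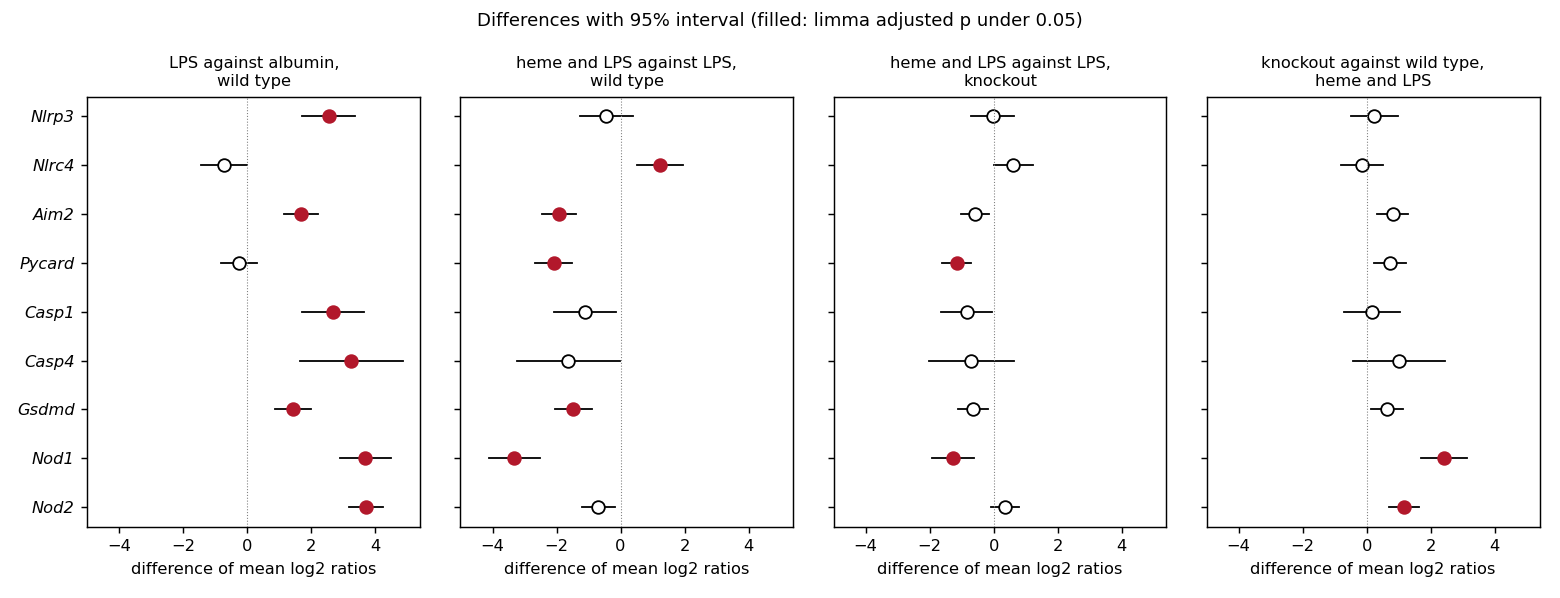
Differences of group mean log2 ratios (x axis) for the 9 genes in 4 comparisons, the group named earlier in each title minus the other; points are estimates, bars 95% intervals, and filled points have an adjusted p under 0.05 in limma. LPS against albumin has 7 filled points on the positive side, and heme before LPS in wild-type cells has 4 filled points on the negative side and Nlrc4 on the positive side.

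Heme before LPS lowered 4 of the 9 genes in Nrf2+/+ macrophages and raised 1. Nod1, Pycard, Aim2 and Gsdmd fell by 1.47 to 3.32 relative to LPS alone, and Nlrc4 rose by 1.23. Nlrp3, Casp1, Casp4 and Nod2 did not pass the test. Over all genes 14.7% were called, 6.35% as lower and 8.34% as higher. The median difference of the 9 genes was -1.47, against 0 over all genes, and the groups did not overlap for 6 of the 9, against 24.2% of all genes.

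Nod1 was at 0.23, 1.06 and 0.72 with heme and LPS, against 4.01, 4.14 and 3.84 with LPS alone. The difference of -3.32 ± 0.37 (95% interval -4.12 to -2.53, adjusted p = 2.81e-05 in limma) is 10.0-fold, and it left Nod1 with no detectable excess over albumin (0.36 ± 0.37, adjusted p = 0.541). Nod2, its relative, stayed high at 3.30, 3.23 and 3.29 with heme and LPS, against 4.19, 3.82 and 3.88 with LPS. These groups did not overlap either, but the difference of -0.69 ± 0.25 missed the threshold (adjusted p = 0.0829). With quantile normalization of the arrays the Nod2 difference was -0.012 (adjusted p = 1), and over 14 alternatives the adjusted p lay between 0.0194 and 1.

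Pycard was at -2.47, -1.88 and -2.20 with heme and LPS, against 0.62, -0.40 and -0.49 with LPS. The adaptor's transcript thus lay below the reference on every heme array, at a difference of -2.09 ± 0.26 or 4.27-fold (adjusted p = 8.43e-05 in limma). Without the arrays lettered a, among them the LPS array at 0.62, the difference was -1.60 (adjusted p = 0.000454). Against albumin it was -2.35 ± 0.26 (adjusted p = 1.77e-05), and Pycard was the 1 member called lower there.

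Of the sensors, Aim2 was at 0.40, 0.36 and -0.064 with heme and LPS, against 2.24, 2.14 and 2.07 with LPS. It fell by 1.92 ± 0.25, or 3.78-fold (adjusted p = 0.000107 in limma). Its difference from albumin was -0.24 ± 0.25 (adjusted p = 0.534). Nlrp3 was at 1.05, 2.23 and 2.10 with heme and LPS, against 2.67, 1.95 and 2.07 with LPS. Here array a was the lowest of one group and the highest of the other, and the difference of -0.44 ± 0.38 (adjusted p = 0.604) was 0.15 without the arrays lettered a.

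Nlrc4 was the exception in direction, at -0.48, 0.99 and 0.61 with heme and LPS against -0.99, -1.03 and -0.57 with LPS. Its difference of 1.23 ± 0.34 passed the test (adjusted p = 0.0228 in limma), with every heme array above every LPS array. The call did not hold without heme and LPS array b (0.93, adjusted p = 0.11) or c (1.11, 0.0858), without LPS array a (1.17, 0.0764) or b (1.15, 0.0811), or with the spread of the compared groups only (1.23, 0.21). Over 14 alternatives the adjusted p lay between 0.00153 and 0.21.

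Among the effectors Gsdmd was at -0.34, -0.12 and 0.11 with heme and LPS, against 1.70, 1.35 and 1.01 with LPS. It fell by 1.47 ± 0.26, or 2.77-fold (adjusted p = 0.00138 in limma), to the level of albumin (difference from albumin -0.053 ± 0.26, adjusted p = 0.959). Casp1 was at 2.05, 0.78 and 1.07 with heme and LPS, against 3.16, 2.20 and 1.87 with LPS. The groups overlapped and the difference of -1.11 ± 0.46 was not called (adjusted p = 0.143). Casp4 was at 3.33, 0.60 and 1.20 with heme and LPS, against 4.33, 3.00 and 2.69 with LPS. Array a with heme and LPS stood far above its group, and the difference was -1.63 ± 0.75 with it (adjusted p = 0.212) and -2.44 without it (adjusted p = 0.0405; 0.0405 to 0.573 over 14 alternatives). The call without that array was the 1 call among the 14 alternatives, and leaving out all LPS-treated arrays lettered a gave none. On array a with heme and LPS 46.4% of the features were listed at 0, and the part of this in the Casp4 value was not tested.

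The mean ratio of 10 macrophage markers ranged from -0.52 to -0.29 with heme and LPS, against 0.44 to 0.84 with LPS in Nrf2+/+ cells. The median of their differences was -0.29, against 0 over all genes. Of the 10, 3 fell with heme (Fcgr1, Mertk and Mrc1, named after their values were seen) and none had a value of 0 on every array of a group. The mean of Fcgr1 was 2.21 with LPS and -3.17 with heme and LPS. Csf1r (-0.49 with LPS, 0.067 with heme and LPS) and Marco (3.03 and 3.22), picked likewise, had higher means with heme. Of 14 neutrophil markers 2 rose (Elane and S100a8), with list means of 0.38 to 0.90 with heme and LPS, against 0.10 to 0.59 with LPS. Over all genes 6.35% fell and 8.34% rose in this comparison. The part of these markers in the differences of the 9 genes was not tested.

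In Nrf2-/- macrophages heme before LPS lowered 2 of the 9 genes, Pycard and Nod1, and raised 0 in limma. At an unadjusted p under 0.05 there were 6, Nlrc4 being the 1 that was higher, and 3889 of all genes. Over all genes 6.77% were called, 2.67% as lower and 4.1% as higher. The groups did not overlap for these 2 genes alone, against 7.64% of all genes, and the median of the 9 differences was -0.65, against 0 over all genes. With the replicate letter as a block 4 of the 9 fell, Aim2 and Casp1 being added.

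Pycard was at -1.54, -1.31, -1.41, -1.56 and -1.47 with heme and LPS, against 0.087, -0.60, -0.69 and -0.016 with LPS. The 5 heme arrays lay close together, and the difference of -1.16 ± 0.22 (adjusted p = 0.00475 in limma) was called under each of 17 alternatives, at -1.28 to -1.01. Nod1 was at 3.21, 1.94, 2.83, 3.70 and 3.76 with heme and LPS, against 4.48, 4.12, 4.12 and 4.69 with LPS. All heme arrays lay below all LPS arrays, yet far above albumin. The difference of -1.26 ± 0.30 (adjusted p = 0.0215) lost its call without LPS array a (-1.22, adjusted p = 0.0681) or d (-1.15, 0.0747), without the arrays lettered a (-1.25, 0.0881) and with the spread of the compared groups only (0.146). Quantile normalization brought it to -0.77 (adjusted p = 0.0105); over 17 alternatives the adjusted p lay between 0.00988 and 0.146.

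Aim2 was at 1.66, 0.47, 0.54, 1.11 and 1.41 with heme and LPS, against 1.75, 1.48, 1.60 and 1.65 with LPS in Nrf2-/- cells. Heme array a lay among the LPS arrays. The difference of -0.58 ± 0.20 was not called (adjusted p = 0.125 in limma), but it was with the block (-0.67, adjusted p = 0.0454) and without heme array a (-0.73, 0.0245; 0.0245 to 0.355 over 17 alternatives). Casp1 was at 2.32, 0.60, 0.97, 1.87 and 1.61 with heme and LPS, against 2.87, 2.04, 1.81 and 2.56 with LPS. These groups overlapped (-0.85 ± 0.37, adjusted p = 0.255; with the block -0.88, 0.0415; 0.0415 to 0.521 over 17 alternatives).

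Gsdmd was at 0.60, -0.16, 0.63, 0.82 and 0.71 with heme and LPS, against 1.39, 0.75, 0.90 and 1.62 with LPS, a difference of -0.65 ± 0.22 (adjusted p = 0.102 in limma). Only array d with heme reached above the lowest LPS array. Casp4 was at 3.70, 0.95, 2.43, 3.21 and 3.32 with heme and LPS, against 3.91, 3.26, 2.43 and 4.05 with LPS (-0.69 ± 0.62, adjusted p = 0.691), the groups overlapping over most of their range. Its difference was -0.25 without heme array b and -1.02 without LPS array c, neither called.

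Nlrp3 was at 0.90, 2.38, 2.38, 2.47 and 2.03 with heme and LPS, against 1.95, 1.98, 2.43 and 1.90 with LPS in Nrf2-/- cells. Heme array a was below all others, and the mean difference was -0.035 ± 0.31 (adjusted p = 1 in limma), or 0.25 without that array. Nlrc4 was at -0.55, 0.56, 0.57, 0.47 and 0.049 with heme and LPS, against -0.35, -0.12, -0.45 and -0.67 with LPS, with heme array a again the lowest of its group. The difference of 0.62 ± 0.28 was not called (adjusted p = 0.264) and was 0.83 without the arrays lettered a (adjusted p = 0.0206; 0.0206 to 0.488 over 17 alternatives). Nod2 was at 4.15, 3.82, 4.34, 4.91 and 5.00 with heme and LPS, against 3.82, 4.28, 3.97 and 4.26 with LPS. It overlapped between the groups (0.36 ± 0.20, adjusted p = 0.412), though quantile normalization gave a call (0.72, adjusted p = 0.00922; 0.00922 to 0.684 over 17 alternatives).

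**Figure D3:**
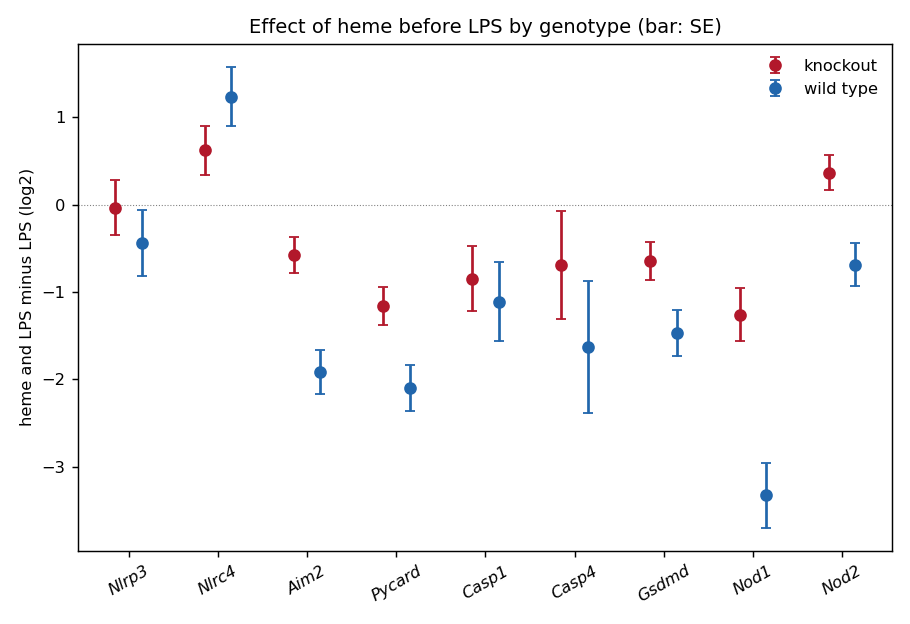
Difference between heme with LPS and LPS alone (y axis, log2) for each of the 9 genes on the x axis in knockout and wild-type macrophages; points are estimates and bars SEs. Nod1 has the widest gap between genotypes, at -1.26 in knockout and -3.32 in wild-type cells.

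Whether the heme effect depended on NRF2 was tested directly as the heme effect in Nrf2-/- minus that in Nrf2+/+ cells. None of the 9 genes passed the adjusted threshold in limma, where 0.947% of all genes did, while 5 of the 9 had an unadjusted p under 0.05, as did 1779 of all genes. The median of the 9 values was 0.93, against 0 over all genes.

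Nod1 had the largest value of the 9, 2.06 ± 0.48 (95% interval 1.03 to 3.09, adjusted p = 0.064 in limma), from a fall of 1.26 in Nrf2-/- and of 3.32 in Nrf2+/+ cells. It was called with quantile normalization (1.98, adjusted p = 0.00103), with values of 0 taken as missing (0.0441), without genes mostly listed at 0 (0.0402) and without heme and LPS array b of the knockout (2.35, 0.00333), and the adjusted p lay between 0.00103 and 0.316 over 23 alternatives. Aim2 followed with 1.34 ± 0.32 (95% interval 0.65 to 2.03, adjusted p = 0.0781). It was called without knockout heme array b (1.48, 0.0213) or c (1.46, 0.0443), within 0.0213 to 0.21 over 23 alternatives.

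Nod2 had 1.05 ± 0.32 (adjusted p = 0.199 in limma), with a value of 0.36 in Nrf2-/- and -0.69 in Nrf2+/+ cells; without knockout heme array b it was 1.21 (adjusted p = 0.0418; 0.0418 to 0.486 over 23 alternatives). For Pycard the value was 0.94 ± 0.34 (adjusted p = 0.368) and for Gsdmd 0.82 ± 0.34 (adjusted p = 0.5). These are the other members with an unadjusted p under 0.05, and for each of the 5 the knockout value was the higher. Casp4 (0.93 ± 0.98), Nlrp3 (0.41 ± 0.49), Casp1 (0.26 ± 0.59) and Nlrc4 (-0.61 ± 0.44) had intervals that include 0, which does not show that their heme effect was alike in the genotypes. Without wild-type heme array a the values were 1.74 for Casp4, 0.035 for Nlrp3 and -1.04 for Nlrc4, and without wild-type heme array b they were 0.38, 0.62 and -0.31. Over all single arrays left out, Nlrp3 ranged from 0.035 to 0.69, and Casp4 and Nlrc4 lay within the values just given.

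Comparing the genotypes directly, Nod1 and Nod2 were higher in Nrf2-/- than in Nrf2+/+ macrophages when heme came before LPS, and no member differed detectably under LPS alone. With heme and LPS 5.29% of all genes were called, 2.13% as higher in the knockout, and the groups did not overlap for Nod1, Nod2, Aim2 and Pycard, against 7.79% of all genes. The median of the 9 differences was 0.72, against 0 over all genes. Both calls were lost with the spread of the compared groups only (adjusted p = 0.0653 for Nod1 and 0.138 for Nod2). The mean ratio of the 10 macrophage markers ranged from 0.10 to 0.80 in Nrf2-/- cells, against -0.52 to -0.29 in Nrf2+/+ cells with heme and LPS. Of the 10, 2 were higher in the knockout (Fcgr1 and Marco, named after their values were seen) and 0 lower, with a median difference of 0.50. Of the 14 neutrophil markers 1 was lower (S100a8), where 3.16% of all genes were lower. The part of these markers in the differences of the 9 genes was not tested.

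Nod1 was at 3.21, 1.94, 2.83, 3.70 and 3.76 in Nrf2-/- cells, against 0.23, 1.06 and 0.72 in Nrf2+/+ cells, both with heme and LPS. The lowest knockout array lay well above the highest wild-type array, and the difference was 2.42 ± 0.33 or 5.35-fold (adjusted p = 0.000467 in limma). Nod2 was at 4.15, 3.82, 4.34, 4.91 and 5.00 in Nrf2-/- cells, against 3.30, 3.23 and 3.29 in Nrf2+/+ cells, a difference of 1.17 ± 0.22 or 2.25-fold (adjusted p = 0.00519). With the block the differences were 2.06 and 0.90, both called.

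Aim2 missed the threshold narrowly, at 1.66, 0.47, 0.54, 1.11 and 1.41 in Nrf2-/- cells against 0.40, 0.36 and -0.064 in Nrf2+/+ cells with heme and LPS. The difference of 0.81 ± 0.22 had an adjusted p of 0.0515 in limma. It passed with quantile normalization (0.0488), with values of 0 taken as missing (0.0441), without genes mostly listed at 0 (0.04) and without knockout array b (0.95, 0.0115) or c (0.93, 0.0224), and the adjusted p lay between 0.0115 and 0.374 over 16 alternatives. Pycard, at -1.54, -1.31, -1.41, -1.56 and -1.47 in Nrf2-/- against -2.47, -1.88 and -2.20 in Nrf2+/+ cells, differed by 0.72 ± 0.24 (adjusted p = 0.106). Gsdmd differed by 0.63 ± 0.24 (adjusted p = 0.167), and by 0.80 without knockout array b (adjusted p = 0.0281; 0.0281 to 0.426 over 16 alternatives).

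The other members were not called between genotypes with heme and LPS. Casp4 was at 3.70, 0.95, 2.43, 3.21 and 3.32 in Nrf2-/- cells, against 3.33, 0.60 and 1.20 in Nrf2+/+ cells. The groups overlapped, and on arrays a, b and c the knockout value was the higher of each letter. Casp4 differed by 1.01 ± 0.68 (95% interval -0.44 to 2.46), by 1.82 without wild-type array a and by 0.45 without wild-type array b. Nlrp3 differed by 0.24 ± 0.34 (-0.49 to 0.97), Casp1 by 0.18 ± 0.41 (-0.70 to 1.05) and Nlrc4 by -0.15 ± 0.30 (-0.80 to 0.50). Under LPS alone 0 of the 9 were called by limma and 1 had an unadjusted p under 0.05, where 0.00445% of all genes were called and 557 genes had an unadjusted p under 0.05. That member was Aim2, at 1.75, 1.48, 1.60 and 1.65 in Nrf2-/- against 2.24, 2.14 and 2.07 in Nrf2+/+ cells, the 1 member whose groups did not overlap (3.02% of all genes). Its difference of -0.53 ± 0.23 had an adjusted p of 1, and the median of the 9 differences was -0.087.

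Set against albumin, Nrf2+/+ cells with heme and LPS had 3 members higher and 1 lower. Over all genes 27.3% were called, 12.9% as higher and 14.4% as lower, and the groups did not overlap for 6 members, against 43.7% of all genes; this comparison shares its arrays with both others in wild-type cells. Nod2 was higher by 3.02 ± 0.25 and Nlrp3 by 2.09 ± 0.38 (adjusted p = 1.04e-06 and 0.00089 in limma). Casp1 was higher by 1.56 ± 0.46 (adjusted p = 0.0194), a call lost without albumin array b (1.55, 0.0519) or c (1.56, 0.0502) or heme and LPS array a (1.18, 0.0904; 0.0012 to 0.0904 over 14 alternatives). Casp4 was at 3.33, 0.60 and 1.20 with heme and LPS, against 0.091, 0.053 and 0.11 with albumin, above on each array but not called (1.63 ± 0.75, adjusted p = 0.134). Nlrc4 differed by 0.50 ± 0.34 (adjusted p = 0.317), and by 0.92 without heme and LPS array a (adjusted p = 0.0346; 0.00959 to 0.787 over 14 alternatives).

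Ordered by their means, the groups formed the same sequence for some members and different ones for others. For Nod1 the order from high to low was Nrf2-/- with LPS (4.35 ± 0.28, SD), Nrf2+/+ with LPS (3.99 ± 0.15), Nrf2-/- with heme and LPS (3.09 ± 0.75), Nrf2+/+ with heme and LPS (0.67 ± 0.42) and albumin (0.31 ± 0.057). Its top 2 and its bottom 2 groups overlapped. Casp4 had the same order of groups. For Nod2 it was Nrf2-/- with heme and LPS (4.45 ± 0.50), Nrf2-/- with LPS (4.08 ± 0.22), Nrf2+/+ with LPS (3.96 ± 0.20), Nrf2+/+ with heme and LPS (3.27 ± 0.037) and albumin (0.25 ± 0.035), the top 3 overlapping. Pycard ran from albumin (0.16 ± 0.023) through Nrf2+/+ with LPS (-0.088 ± 0.62) and Nrf2-/- with LPS (-0.30 ± 0.40) to Nrf2-/- with heme and LPS (-1.46 ± 0.10) and Nrf2+/+ with heme and LPS (-2.18 ± 0.29). The 2 heme groups of Pycard did not overlap with each other or with any other group. Nlrp3 and Casp1 shared an order, in which both LPS groups came ahead of both heme groups and albumin was lowest. Aim2 and Gsdmd shared another, which put Nrf2+/+ with heme and LPS below albumin. Nlrc4 had an order of its own, with both heme groups highest and both LPS groups lowest.

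The pathway around the 9 genes was followed in 6 lists with 98 genes, of which 90 were measured, and the rest were not analysed here. LPS raised 36 of the 90 and lowered 10 relative to albumin, where 12.3% of all genes rose and 16.3% fell. Heme before LPS raised 11 and lowered 27 in Nrf2+/+ cells, where 8.34% of all genes rose and 6.35% fell. In Nrf2-/- cells it raised 4 and lowered 10, where 4.1% of all genes rose and 2.67% fell. With heme and LPS 8 were higher and 6 lower in Nrf2-/- than in Nrf2+/+ cells, against 2.13% and 3.16% of all genes. Under LPS alone 0 of the 90 were called by limma, against 0.00445% of all genes, and 1 had an unadjusted p under 0.05. These shares of all genes hold for the counts of each list below. Genes named below beyond the 4 of a list with the largest change, to account for small counts, were picked after their values were seen.

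Of 20 other sensors and adaptors 9 rose and 1 fell with LPS. The DNA-binding HIN-200 relatives of Aim2 led, with Ifi209 at 5.34 ± 0.85, Ifi203 at 4.50 ± 0.32 and Ifi204 at 3.30 ± 0.46, beside Mefv, which encodes the sensor pyrin, at 3.93 ± 0.43 (all called by limma); these family members are alike in sequence and their probes may share targets. The gene that fell was Nlrx1, by 0.63. With heme before LPS in Nrf2+/+ cells 6 of the 20 fell and 1 rose. Ifi209 fell by 4.51 ± 0.85, Zbp1, a sensor of Z-form nucleic acids, by 2.60 ± 0.82, Ifi204 by 2.59 ± 0.46 and Ifi203 by 1.95 ± 0.32. The gene that rose was Naip2, by 1.49 ± 0.22 (adjusted p = 0.000305 in limma). Its mouse protein binds a bacterial secretion system part and then engages NLRC4. Nlrc4 itself rose by 1.23, a call lost in 5 of 14 alternatives. The means of Naip5 (0.41 with LPS, 0.19 with heme and LPS) and Naip6 (0.52 and -0.013) were lower with heme. In Nrf2-/- cells Ifi204 (-1.37), Ifi203 (-0.98) and Naip6 (-0.51) were the called genes, all lower, and Naip2 had 0.15 ± 0.18. The interaction was called for Naip2 (-1.34 ± 0.28, adjusted p = 0.0396).

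Of 16 other caspases, gasdermins and membrane rupture genes 3 rose and 2 fell with LPS, where 28.6% of all genes were called. With heme before LPS 1 rose and 1 fell in each genotype, where 14.7% of all genes were called in Nrf2+/+ and 6.77% in Nrf2-/- cells. With LPS Casp8, the caspase of death receptors that can also cut gasdermin D, rose by 2.37 ± 0.25 and Chmp4b and Vps4a of the membrane repair machinery by 1.20 and 0.87. Casp9, the caspase of mitochondrial apoptosis, fell by 2.29 ± 0.15 and Gsdme, another pore-forming gasdermin, by 1.79 ± 0.28. With heme before LPS Casp8 fell by 1.15 ± 0.21 in Nrf2-/- and by 1.85 ± 0.25 in Nrf2+/+ cells, and Casp9 rose by 0.46 in Nrf2-/- and by 0.51 in Nrf2+/+ cells, all called by limma. Ninj1, which ruptures the membrane at the end of pyroptosis, was not called in these comparisons, at -0.13 ± 0.20 in Nrf2-/- and 0.16 ± 0.24 in Nrf2+/+ cells.

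Of the cytokines that caspase-1 matures, Il18 fell with heme before LPS and Il1b was not called. Of 7 genes in the IL-1 list, which also holds the IL-18 binding protein gene Il18bp, the 5 called with LPS rose. Il1b rose by 7.27 ± 0.26, the receptor antagonist Il1rn by 4.90 ± 1.07, Il18 by 2.84 ± 0.28 and Il18bp by 2.21 ± 0.52. The other was Il1a. Il1a was listed at 0 on all 3 albumin arrays, which is not a measured level, so no size is given for it. Heme before LPS lowered Il18 by 1.25 ± 0.23 in Nrf2-/- and by 2.66 ± 0.28 in Nrf2+/+ cells (adjusted p = 0.00464 and 1.94e-05 in limma). Il1b had 0.15 ± 0.22 in Nrf2-/- and -0.16 ± 0.26 in Nrf2+/+ cells and was not called in either. Il18 was at 0.87 to 2.17 in Nrf2-/- with heme and LPS, against 0.075 to 0.54 in Nrf2+/+ with heme and LPS, a difference of 1.33 ± 0.25 (adjusted p = 0.00572).

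Il1f9, which encodes IL-36 gamma, was the 1 gene of the 7 in the IL-1 list that heme raised. Its difference was 3.24 ± 0.49 in Nrf2+/+ cells (adjusted p = 0.000382 in limma), against -0.096 ± 0.40 in Nrf2-/- cells. The interaction was -3.34 ± 0.64 (adjusted p = 0.0211). It was listed at 0 on 3 of 5 Nrf2-/- arrays with heme and LPS, on 3 of 4 Nrf2-/- arrays with LPS and on 1 of 3 Nrf2+/+ arrays with LPS, so these values are not a measured level.

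Of 15 NOD signalling partners 8 rose and 1 fell with LPS, led by the deubiquitinase gene Tnfaip3 (5.64 ± 0.76) and the ubiquitin ligase gene Birc3 (3.68 ± 0.30), with Slc15a3, a lysosomal carrier of peptidoglycan fragments, at 2.36 ± 0.33 and Tab1 at -2.42 ± 0.14. Heme before LPS lowered 4 and raised 3 in Nrf2+/+ cells: Birc3 by 1.42, Birc2 by 1.25, Atg16l1 by 1.03 and Tab2 by 0.95 down, and Traf6 by 0.81, Tab1 by 0.80 and Map3k7 by 0.73 up. In Nrf2-/- cells Birc2 (-1.16) and Tab2 (-0.64) fell and Ikbkg (0.57) and Tab1 (0.55) rose. Of 9 necroptosis and cell death genes 3 rose and 2 fell with LPS, among them Cflar, the caspase-8 inhibitor, at 4.44 ± 0.21 and Mlkl, the pore former of necroptosis, at 1.90 ± 0.53. With heme before LPS in Nrf2+/+ cells Cflar fell by 1.07 and Tnfrsf1a by 0.75, while Ripk3 rose by 1.06 and Tradd by 0.36.

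Of 23 triggers and regulators 8 rose and 4 fell with LPS, and heme before LPS lowered 13 and raised 3 in Nrf2+/+ cells. The guanylate-binding proteins, which open bacterial membranes and deliver LPS to caspase-11, were among the genes with the largest changes. Gbp5 rose by 8.59 ± 0.72 with LPS and, with heme before LPS, fell by 3.76 ± 0.72 in Nrf2+/+ cells (adjusted p = 0.00232 in limma). Gbp3 rose by 6.40 ± 0.98 with LPS and, with heme before LPS, fell by 4.38 ± 0.98 (adjusted p = 0.0065). Panx1, the ATP-releasing pannexin channel, went the other way: it lay at -1.23 to 0.24 in Nrf2-/- and 2.06 to 2.87 in Nrf2+/+ cells with heme and LPS, against -1.05 to -0.47 in Nrf2-/- and -1.43 to -0.56 in Nrf2+/+ cells with LPS. Its heme effect was 0.31 ± 0.27 in Nrf2-/- and 3.48 ± 0.33 in Nrf2+/+ cells, an interaction of -3.17 ± 0.42 (adjusted p = 0.00186). Irf1, a factor that drives Gbp genes, was higher in Nrf2-/- than in Nrf2+/+ cells with heme and LPS by 2.25 ± 0.50 (adjusted p = 0.0163), and Gbp5 by 2.76 ± 0.65 (adjusted p = 0.0215), with overlapping arrays for Gbp5.

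**Figure D4:**
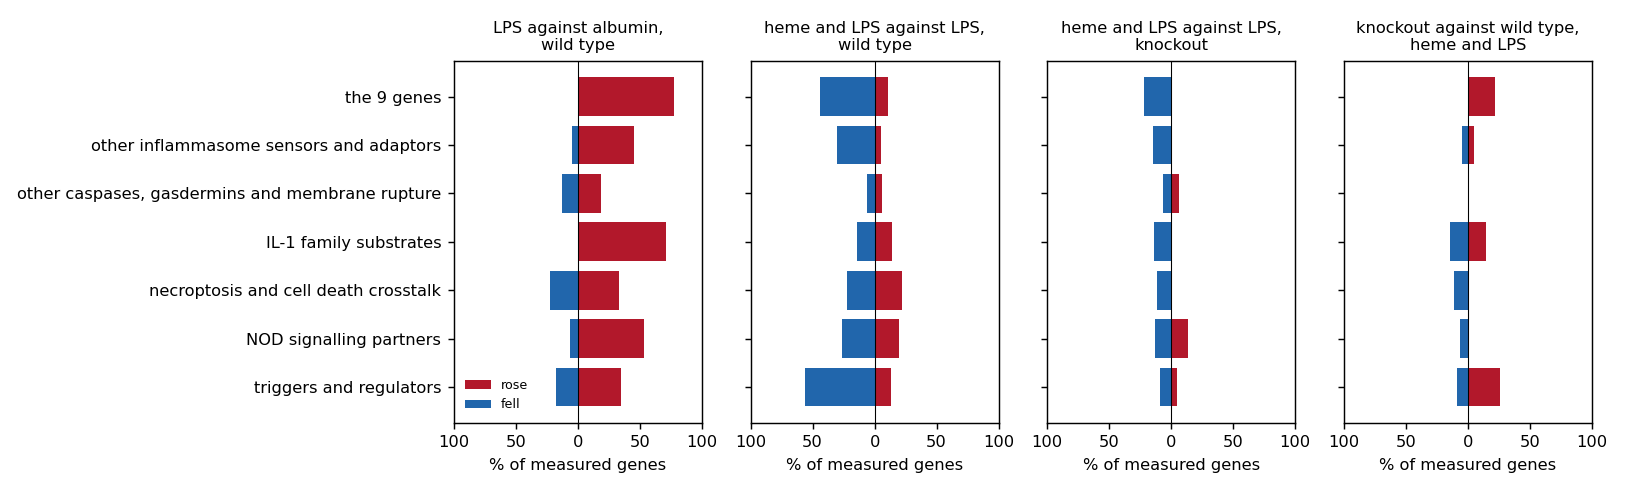
Percent of measured genes called higher (right of 0) and lower (left of 0) in limma for the 9 genes and the 6 pathway lists, down the page, in 4 comparisons. The bars of the 9 genes stand for 7 higher with LPS against albumin and for 4 lower and 1 higher with heme before LPS in wild-type cells.

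Among the 9 genes, Aim2 and Gsdmd had the most alike profiles, with a mean absolute difference of 0.56 in log2 ratio over the 18 arrays, and Pycard and Nod2 the least alike, at 4.21. Among 13877 genes listed at 0 on at most 4 arrays, the genes closest to each member by the same measure were Psme1 (0.15) and Plod3 (0.16) for Gsdmd, Hdac9 (0.21) and Fgfbp3 (0.29) for Pycard, and Gadd45b (0.22) and Nfkbia (0.32) for Nod2. For the sensors they were Stard5 (0.26) and Pik3r5 (0.27) for Nlrp3, Gm10845 (0.25) and Ppm1f (0.27) for Nlrc4, and Rnf139 (0.23) and Trim26 (0.25) for Aim2. For the caspases they were Rcn1 (0.23) and Ms4a6d (0.24) for Casp1, and Car13 and Helz2 (both 0.26) for Casp4. Nod1 had the most distant neighbours, Snn (0.46) and Rapgef2 (0.47).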

How the data were processed

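RNA was hybridised to 18 two-dye Agilent arrays, with the sample in Cy5 and the untreated macrophage reference in Cy3 per the labels, from 500 ng of total RNA. The deposited values are log10 ratios of sample over reference, made with the program Agilent Feature Extraction, version 10.5.1.1 by the submitters' processing notes. That they are log10 was inferred from the values. The sources used here do not give the background and dye correction, and the number of arrays limits the precision. They were turned into log2 ratios, and the probes of each gene were averaged (22485 genes, 16347 with 1 probe; 33026 of 44397 features had 1 symbol and 11371 had none). No 2 arrays held identical values.

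Group means were fitted over all 18 arrays with limma 3.58.1 (lmFit, eBayes) in R 4.3.3, and p-values, two-sided, were adjusted over all genes by Benjamini-Hochberg; called genes have an adjusted p under 0.05. In 7 comparisons the alternatives were the replicate block, quantile normalization, median centring, values of 0 as missing, the median over probes, the spread of the compared groups only, a filter on genes listed at 0 on more than 9 arrays, and leaving out the LPS-treated arrays lettered a or each array in turn. Titles carry replicate letters that the labels do not explain. Deviations from the group mean correlated between arrays of the same letter for each pair of Nrf2-/- arrays with heme and LPS and with LPS (0.22 to 0.59). They also did for heme and LPS arrays across genotypes (0.23 to 0.53) and for LPS arrays across genotypes (0.20 to 0.58). The letters were taken as pairing there, but the main fits held no block in any comparison. Of the arrays of the 2 Nrf2-/- groups 4 of 8 were closest to their own letter, against 6 of 6 in each of these genotype comparisons. Elsewhere the letters were not taken as pairing, with correlations of 0.01 to 0.48 between the treatments in Nrf2+/+.

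The members and lists were chosen with earlier results of these data known. Named pathway genes were up to 4 called genes per list and comparison by size and up to 2 not called, and for likeness the 2 genes nearest to each member. List symbols were matched by symbol, gene identifier or synonym (Ifi209 for Pyhin1, Ifi208 for Pydc3). Figures used Python 3.11.15, pandas 2.3.3 and matplotlib 3.10.9.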

Additional observations from a re-analysis of the deposited data

Results flagged for a closer look

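Within the 2 Nrf2-/- groups, the highest or lowest array of a member was set against the gap to its neighbour, in 18 sets of 4 or 5 arrays; chance flags about 1 set in 20. In 3 sets an array stood far from the others. Nlrp3 was at 0.897 on array a with heme and LPS, where the other 4 arrays lay at 2.03 to 2.47. Nlrp3 was at 2.43 on array c with LPS, where the other 3 arrays lay at 1.90 to 1.98. Gsdmd was at -0.157 on array b with heme and LPS, where the other 4 arrays lay at 0.60 to 0.82. Array a with heme and LPS also had 48.8% of its features listed at 0, the highest share of the 18 arrays, and the 2 Nlrp3 probes differed more than those of the other members; the part of either in these values was not tested. Groups of 3 arrays were not examined in this way.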

How the results depend on the processing

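Over up to 23 alternatives per comparison, none of the 20 called member differences changed direction and 15 were called under every one run. Of all 63 member differences 30 kept direction and side of the threshold throughout. The count of members called with heme before LPS in the knockout was 2, against 4 with the replicate block, 1 with the spread of the compared groups only and 1 to 3 when single arrays were left out. For the interaction it was 0, against 1 with quantile normalization, 1 with values of 0 as missing, 1 without genes at 0 on more than 9 arrays and 0 to 3 without single arrays. For knockout against wild type with heme and LPS it was 2, against 0 with the spread of the compared groups only and 2 to 4 without single arrays. Aim2 was also called there with quantile normalization, with values of 0 as missing and without genes at 0 on more than 9 arrays. With the spread of the compared groups only, each variance rests on fewer arrays. That setting also leaves out the albumin arrays in comparisons among LPS-treated groups. The SD of each of the 9 genes was lower with albumin (0.023 to 0.14) than in every LPS-treated group. Taking 0 as missing and leaving out genes at 0 on more than 9 arrays changed the set of genes fitted but no value of the members. The cause of the other changes, those with the spread of the compared groups only among them, was not tested.

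Of 12 differences that changed sign none was called. Without the LPS-treated arrays lettered a, Nlrp3 was 0.149 for heme in wild type and 0.209 in the knockout. In that setting, for knockout against wild type under LPS, Nlrp3 was 0.0919, Pycard 0.00849 and Casp1 0.106. Gsdmd was 0.0582 there for heme and LPS against albumin. Quantile normalization gave 0.191 for Nlrp3 with heme in the knockout, and the block gave -0.136 for Casp4 and -0.0126 for Nod2 between genotypes under LPS. Without single arrays, Nlrp3 with heme in the knockout ran from -0.144 to 0.248, the Casp1 interaction from -0.111 to 0.638, and Gsdmd for heme and LPS against albumin from -0.165 to 0.0582. Between genotypes under LPS the ranges were -0.307 to 0.0526 for Nlrp3, -0.416 to 0.139 for Pycard, -0.355 to 0.288 for Casp1 and -0.250 to 0.571 for Casp4. With heme and LPS they were -0.132 to 0.522 for Nlrp3, -0.580 to 0.154 for Nlrc4 and -0.0837 to 0.551 for Casp1.

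Where letters did not pair the arrays, the replicate block gave 7 members in place of 5 for heme in wild type (Casp1 -1.11, adjusted p = 0.0144, and Nod2 -0.69, 0.0194, added; limma), 5 in place of 4 for heme and LPS against albumin (Casp4 1.63, 0.0321), and left 7 for LPS against albumin and 0 for the interaction; 2 of 6 arrays of the treatments in wild type were closest to their own letter. Over all genes the spread of the compared groups only gave 1545 calls in place of 3303 for heme in wild type, 752 in place of 1523 in the knockout, 116 in place of 213 for the interaction and 317 in place of 1189 between genotypes with heme and LPS. The interaction had 140 calls without wild-type heme array c, 135 without wild-type LPS array b and 323 without knockout heme array b, and heme in the knockout had 951 without knockout LPS array a. Between genotypes under LPS the count of 1 became 0 with the block or the spread of the compared groups only, 6 without the arrays lettered a, and 3 and 2 without wild-type LPS array a and b.

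Ratios carry no depth, groups hold 3 to 5 arrays, and exact values of 0 were kept as given. Taking them as missing changed the calls of Nod1 in the interaction and of Aim2 between genotypes with heme and LPS. No value of the 9 genes was 0, so that setting left their differences as they were. It lowered the number of genes fitted from 22485 to 17425.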

Other observations

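In the albumin group the 9 genes lay close to the untreated reference, at -0.35 for Nlrp3 to 0.54 for Aim2 over the 27 values, with SDs of 0.023 for Pycard to 0.14 for Nlrc4. The SD of each member was higher in every LPS-treated group than with albumin, at 0.037 for Nod2 in Nrf2+/+ to 1.43 for Casp4 in Nrf2+/+ with heme and LPS, and so it was for 50.3% of all genes. The count of members whose Nrf2-/- mean with heme and LPS lay above the Nrf2+/+ mean was 8 of 9, Nlrc4 being the exception, against 47.1% of all genes. Under LPS alone it was 4 of 9, against 45.4% of all genes.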
